A study of Mus musculus with 12 samples.

Results

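Resident macrophages of the mouse cochlea were read through 10 genes that are used as their markers: C1qa, C1qb, C1qc, Csf1r, Cx3cr1, Aif1, Cd68, Mrc1, Cd163 and Lyz2. They were chosen by name, and all 10 were found among the 23945 genes read and passed the filter on low values that left 16276 genes. RNA of whole cochleae was sequenced in 12 libraries of 3 per group, named here by their codes. The groups were WT at 5 months (E1, E3 and E4), Dusp1 KO at 5 months (E7, F18 and F19), WT at 8 months (F1, F10 and F12) and Dusp1 KO at 8 months (F5, F6 and F27). All mice were of a mixed background, 129S2/SvPas:C57BL/6, no treatment is labelled, and the KO mice were Dusp1-/-. The sources used here do not describe the knockout allele. Dusp1 encodes a phosphatase that switches off the p38 and JNK kinases.

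Macrophages live in the healthy cochlea along the spiral ligament, around the vessels of the stria vascularis, under the sensory epithelium and among the neurons of the spiral ganglion, where they clear debris. They depend on the receptor encoded by Csf1r and its ligands CSF1 and IL-34, and they secrete C1q, the recognition protein that starts the classical complement pathway. Whole-cochlea RNA also holds the blood and bone marrow cells of the surrounding bone, among them neutrophils and monocytes, which share some of these genes. In such bulk samples fewer cells of a type and less RNA per cell cannot be told apart.

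The targeted gene was not lower in the libraries labelled KO. Dusp1 was at 60.8, 47.6 and 29.5 FPKM (reads scaled by transcript length and by the reads of the library) in WT and at 61.9, 81.5 and 75.3 FPKM in the libraries labelled KO at 5 months. At 8 months it was at 43.0, 38.3 and 38.6 FPKM in WT and at 55.6, 73.7 and 57.1 FPKM in those labelled KO. All libraries labelled KO were thus above all WT libraries at both ages. Of all genes tested 11.3% were so at 5 months and 4.10% at 8 months. The averaged difference of Dusp1, 0.67 on the log2 scale, did not pass the test across all genes (limma adjusted p = 0.13). A gene value does not show which exons the reads came from, so it cannot show whether the deleted part was missing, and every genotype direction below rests on the labels. The 12 fixed cochlear genes added up to between 4256 and 6311 FPKM, most of it from Coch and Otos, while the hair cell genes Slc26a5, Slc17a8, Myo7a and Otof were detected in every library at 1.04 to 14.4 FPKM. Among the fixed gene lists, neutrophil genes differed most between libraries, the 19 found adding up to between 75.9 FPKM in E4 and 23117 FPKM in E7, with 16969 FPKM in F5. Xist marked 4 libraries as female, 1 in WT and 0 in KO at 5 months and 1 in WT and 2 in KO at 8 months.

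The 3 chains of C1q were present in nearly equal amounts and among the more abundant transcripts of the organ. C1qa lay at 60.4, 52.0 and 70.1 FPKM in WT and at 75.1, 68.1 and 60.7 FPKM in the libraries labelled KO at 5 months, and at 60.7, 68.4 and 78.1 FPKM in WT and 88.2, 85.0 and 69.8 FPKM in those labelled KO at 8 months. Its mean over the 12 libraries was above that of 92.4% of the genes tested. Groups overlapped at both ages, and E3 was the lowest and F5 the highest library.

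C1qb was at 58.0, 53.7 and 67.9 FPKM in WT and 84.4, 69.5 and 61.3 FPKM in KO at 5 months, then at 63.8, 64.0 and 74.8 FPKM in WT and 96.3, 89.5 and 65.1 FPKM in KO at 8 months. C1qc was at 56.5, 52.7 and 66.6 FPKM in WT and 78.6, 65.9 and 61.1 FPKM in KO at 5 months, then at 58.8, 63.4 and 72.4 FPKM in WT and 88.1, 82.7 and 63.7 FPKM in KO at 8 months. As for C1qa, E3 was the lowest and F5 the highest library and the groups overlapped. Per length the ratio of C1qb to C1qa stayed between 0.933 and 1.12 and that of C1qc to C1qa between 0.912 and 1.05 in the 12 libraries, with coefficients of variation of 6.17% and 4.28%. The level itself varied 1.70-fold for C1qa between the lowest and the highest library, a wider span than that of either ratio. Across the 12 libraries, which each add 1 point to every pair, Pearson's r of the log2 values was 0.991 for C1qb with C1qc, 0.963 for C1qa with C1qc and 0.942 for C1qa with C1qb.

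**Figure D1:**
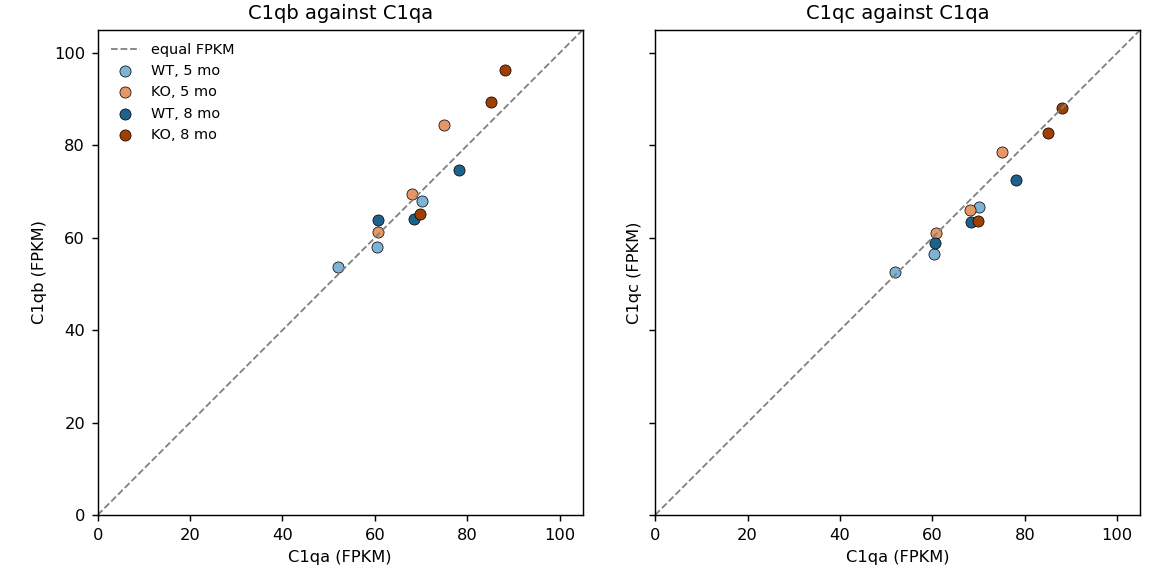
C1qb (left, y axis) and C1qc (right, y axis) against C1qa (x axis), all in FPKM, in the 12 libraries coloured by group, with the dashed line at equal FPKM. The points follow the line between 52.0 and 88.2 FPKM of C1qa, and 2 of the 3 libraries labelled KO at 8 months lie at its upper end.

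The 3 genes lie side by side on chromosome 4 of build mm9, all on the minus strand and with 3 exons each: C1qb at 136436061-136442092, C1qc at 136445717-136448829 and C1qa at 136451831-136454759. C1qb and C1qc are 3625 bases apart and C1qc and C1qa 3002 bases. Since these neighbours moved together, the 250 bases before the start of C1qb and of C1qc are shown from the RefSeq table, which uses build GRCm38.p6. C1qb is at chr4:136886201-136886450 and C1qc at chr4:136892915-136893164, both on the minus strand and printed 5′ to 3′ in the direction of the gene. Capitals mark GAGGAA, a core recognised by PU.1 (Spi1), the lineage factor of macrophages and other myeloid cells.
C1qb: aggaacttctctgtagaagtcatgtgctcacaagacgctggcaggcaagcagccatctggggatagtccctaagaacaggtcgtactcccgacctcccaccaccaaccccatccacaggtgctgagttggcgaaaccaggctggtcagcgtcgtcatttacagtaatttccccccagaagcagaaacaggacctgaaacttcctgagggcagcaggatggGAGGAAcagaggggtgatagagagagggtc
C1qc: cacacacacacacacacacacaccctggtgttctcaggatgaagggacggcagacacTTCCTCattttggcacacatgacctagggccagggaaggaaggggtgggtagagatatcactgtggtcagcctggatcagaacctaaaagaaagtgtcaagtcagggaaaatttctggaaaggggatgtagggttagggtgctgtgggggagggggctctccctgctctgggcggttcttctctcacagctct

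C1qb held 1 match, beginning 30 bases before the start on the gene's strand, and C1qc held 1 on the opposite strand, written there as TTCCTC and beginning 193 bases before it. Searched on both strands, GAGGAA was found in 5 of the 8 members whose promoter the table holds (C1qb, C1qc, Aif1, Cd68 and Mrc1) and in 23.3% of 32841 promoters of the same length outside chromosome 18. The composite element bound by PU.1 with an interferon regulatory factor (EICE) matched 0 of the 8 and was found in 2.30% of promoters. These are matches of letters in this window and show no binding. Promoters of C1qa and Csf1r were not analysed here.

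Csf1r, the receptor that keeps macrophages alive, was the steadiest member. It was at 29.2, 25.9 and 33.1 FPKM in WT and 35.4, 29.1 and 27.6 FPKM in KO at 5 months, and at 27.8, 27.7 and 31.5 FPKM in WT and 37.1, 28.1 and 28.3 FPKM in KO at 8 months. Its values spanned 1.43-fold, the smallest span of the 10, and its SD over libraries was 0.157 on the log2 scale, larger than that of 42.7% of all genes tested. The groups overlapped throughout and E7 and F5 held the top values. Cx3cr1, the fractalkine receptor of resident macrophages, was at 9.91, 7.69 and 11.6 FPKM in WT and 10.4, 8.17 and 7.55 FPKM in KO at 5 months, and at 8.16, 9.37 and 10.5 FPKM in WT and 10.7, 7.47 and 9.13 FPKM in KO at 8 months. Here E4, the library with the fewest neutrophil transcripts, was the highest of all.

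Aif1, which encodes the actin-binding protein IBA1 used to stain macrophages, was at 8.23, 7.87 and 10.2 FPKM in WT and 12.2, 7.35 and 7.32 FPKM in KO at 5 months, and at 8.89, 8.95 and 10.8 FPKM in WT and 13.3, 8.40 and 9.12 FPKM in KO at 8 months. In each KO group 1 library, E7 or F5, lay above all WT libraries of its age and the other two lay within or below them. Aif1 lies on chromosome 17 (mm9, 35307937-35312946), 8.66 Mb from Dusp1.

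Mrc1 and Cd163 encode scavenger receptors of tissue macrophages, for glycoproteins with mannose and for haemoglobin bound to haptoglobin. Mrc1 was at 9.43, 8.48 and 8.71 FPKM in WT and 11.9, 8.27 and 9.03 FPKM in KO at 5 months, and at 6.89, 6.87 and 9.77 FPKM in WT and 11.9, 7.17 and 8.07 FPKM in KO at 8 months. Cd163 was the lowest member, at 2.52, 2.02 and 1.98 FPKM in WT and 2.36, 3.03 and 2.75 FPKM in KO at 5 months, and at 2.18, 1.75 and 2.52 FPKM in WT and 3.11, 2.35 and 2.27 FPKM in KO at 8 months. In Mrc1 the library E7 again led its group, whereas for Cd163 it was the lowest of its group.

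Cd68, a glycoprotein of the lysosome of phagocytes, was at 24.5, 27.5 and 27.6 FPKM in WT and 47.5, 32.2 and 34.1 FPKM in KO at 5 months, and at 26.8, 23.6 and 30.0 FPKM in WT and 47.3, 31.0 and 25.7 FPKM in KO at 8 months. It was the sole member whose genotypes did not overlap at 5 months, all 3 libraries labelled KO being above all 3 WT libraries, as in 11.3% of all genes tested. At 8 months no member had all its KO values above all its WT values, as 4.10% of genes did, since F27 lay inside the WT range for Cd68. Summed over 14 fixed genes of lysosomal proteins, such as the cathepsins, the lysosome spanned 2431 to 2812 FPKM, but a sum can hide single genes. Gpnmb alone spanned 1.97-fold, beside 2.01-fold for Cd68. Of the 14 genes, 3 had an unadjusted limma p under 0.05 at 5 months, beside 18.1% of all genes. These were Gusb, Grn and Npc2, each higher in KO without overlap.

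**Figure D2:**
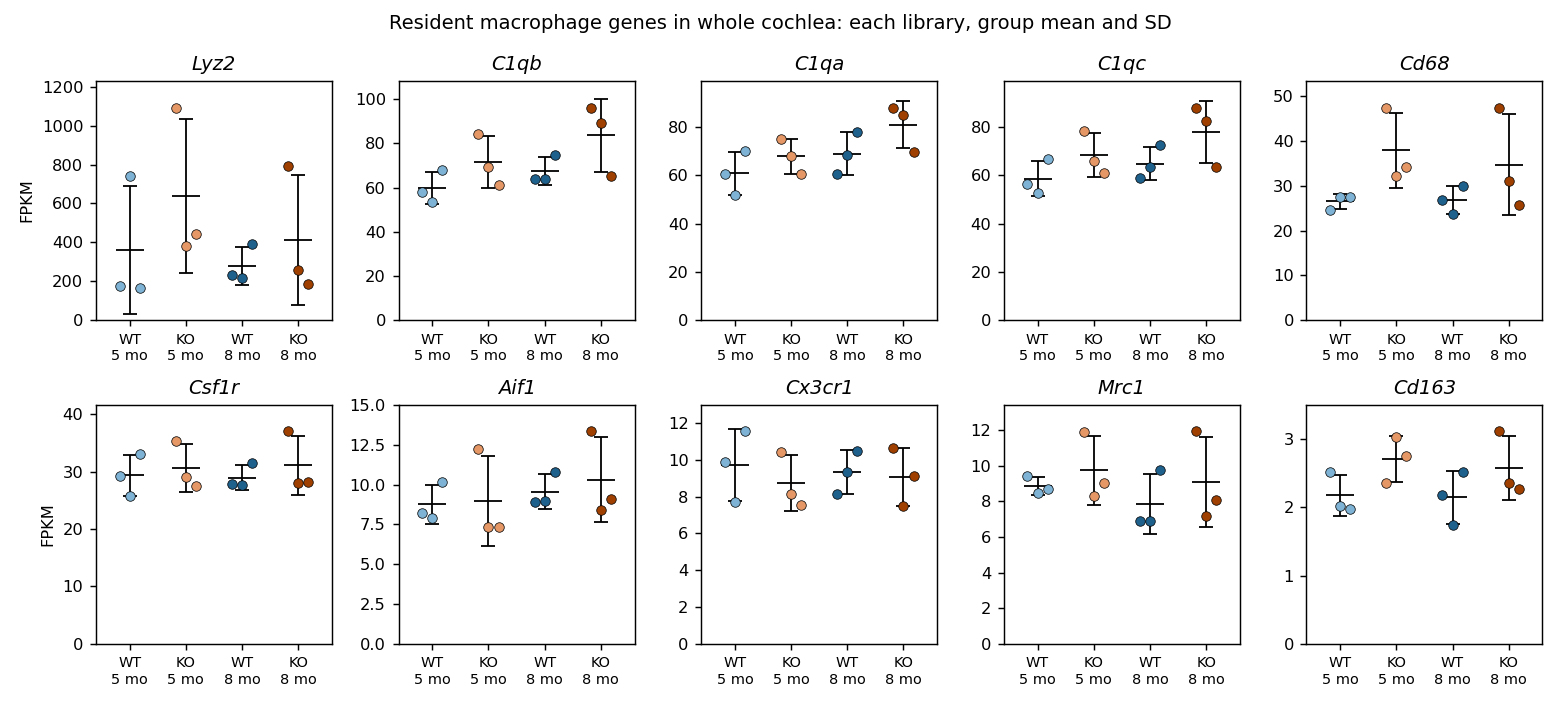
FPKM (y axis, linear from 0, its own scale for each gene) of the 10 members in the 4 groups (x axis), with a point per library and the group mean ± SD (n = 3) in black, genes ordered by their mean. One library in each KO group, E7 at 5 months and F5 at 8 months, is the highest or close to it for most genes, while the WT library E3 is high for Lyz2 alone.

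Lyz2 encodes lysozyme, which macrophages, monocytes and neutrophils all secrete, and it was the most abundant and least steady member. It was at 173, 742 and 165 FPKM in WT and 1093, 380 and 441 FPKM in KO at 5 months, and at 234, 214 and 391 FPKM in WT and 794, 258 and 183 FPKM in KO at 8 months. These values spanned 6.61-fold, against 1.43-fold to 2.01-fold for the other 9 members. The highest were E7 and F5, the libraries with the most neutrophil transcripts, followed by the WT library E3.

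E3 was not high in neutrophil genes, which added up to 691 FPKM there and to 625 FPKM in E1. Instead, genes of secretory epithelium stood out, chosen after their values were seen. Bpifb1, a secreted protein of airway and oral glands, was at 1782 FPKM in E3 and at most 54.7 FPKM elsewhere, and Lipf, a lipase of gland and stomach, was at 771 FPKM and at most 32.5 FPKM. The second lysozyme gene Lyz1, which glands and Paneth cells express, was at 403 FPKM in E3 and between 12.1 and 87.7 FPKM elsewhere. The ratio of Lyz1 to Lyz2 was 0.544 in E3 and 0.0663 to 0.152 in the other libraries, with the next highest in F18 (0.152) and F1 (0.146), which were also next in Bpifb1 (50.3 and 54.7 FPKM). The part of these epithelial transcripts in the Lyz2 value of E3 was not tested.

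Lyz1 and Lyz2 are close copies on chromosome 10 of mm9, Lyz2 at 116714597-116719328 and Lyz1 5523 bases away at 116724851-116729924, both with 4 exons on the minus strand. Their coding sequences, of 444 bases each, are 95% identical and differ at 22 bases, with a run of 118 bases in which they are the same. The first 120 coding bases, read from the mm9 genome at the deposited exons, are shown because they hold 11 of these 22 differences, which are in capitals and by which reads of the copies can be told apart.
Lyz2: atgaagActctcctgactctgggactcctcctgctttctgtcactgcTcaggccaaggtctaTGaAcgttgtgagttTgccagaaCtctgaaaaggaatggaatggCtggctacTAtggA
Lyz1: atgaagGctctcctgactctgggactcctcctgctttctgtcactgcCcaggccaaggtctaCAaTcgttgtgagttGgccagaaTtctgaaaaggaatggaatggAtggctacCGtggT

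Of the 1008 windows of 50 bases, the length of a read, in the Lyz2 transcript, 15.3% also occur in Lyz1, and 65.6% occur there with at most 2 mismatches. How the authors' counting split such reads between the copies is uncertain, and so is the Lyz2 level in E3. Of the other 9 members, 8 shared no window with a transcript of another gene, and Cd163 shared 1 of 4491.

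**Figure D3:**
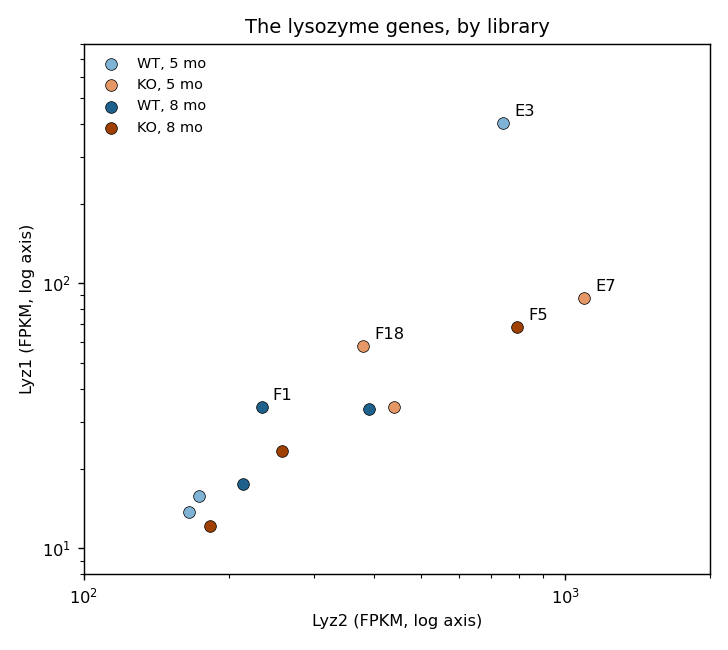
Lyz1 (y axis) against Lyz2 (x axis), both in FPKM on log axes, in the 12 libraries coloured by group, with 5 libraries named. E3 stands apart at 403 FPKM of Lyz1, while E7 and F5 have the most Lyz2 with Lyz1 at 87.7 and 68.5 FPKM.

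By their mean over the 12 libraries the members fell into steps: Lyz2 at 422 ± 299 FPKM (SD, n = 12), the C1q chains at 70.7 ± 13.1 for C1qb, 69.7 ± 10.6 for C1qa and 67.5 ± 10.9 for C1qc, then Cd68 at 31.5 ± 8.06 and Csf1r at 30.1 ± 3.47, Aif1 at 9.39 ± 1.90, Cx3cr1 at 9.22 ± 1.40 and Mrc1 at 8.88 ± 1.70, and Cd163 at 2.404 ± 0.413 FPKM. Between steps no library's value overlapped. Within a step the ranges of neighbours overlapped: C1qb was above C1qa in 7 of the 12 libraries, Cd68 above Csf1r in 6, Aif1 above Cx3cr1 in 6 and Cx3cr1 above Mrc1 in 7.

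Members differed in how far they followed the libraries rich in neutrophil transcripts. E7 and F5 were the top pair of libraries for 5 of the 10 members and for 9.63% of all genes tested, against 18 of 18 neutrophil genes. The spread shows the distance between these sets: the median SD over libraries was 0.238 on the log2 scale for the members, 0.174 for all genes tested and 2.25 for the neutrophil list, whose S100a8 ranged from 24.8 FPKM in E4 to 10376 FPKM in E7. E4, lowest in neutrophil transcripts, was the third highest library for Csf1r (33.1 FPKM) and the highest for Cx3cr1.

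Pearson's r of a member's log2 values with those of S100a8 over the 12 libraries, given as a description, was 0.800 for Cd68, 0.762 for Lyz2, 0.683 for Cd163, 0.625 for Mrc1 0.413 for Csf1r, 0.359 for Aif1, 0.354 to 0.504 for the C1q chains and −0.0301 for Cx3cr1. The genes most like Cd68 among 15219 others were Ms4a6c (0.979), Ccl9 (0.978), Cd300ld (0.972), Fcgr3 (0.971) and Mpp1 (0.969), and Fcgr3 encodes an Fc receptor of myeloid cells. Aif1 was most like Csf1r itself (0.889), followed by Ciita, D6Wsu163e, Mir142 and Ctdp1 (0.866 to 0.857). For Mrc1 they were Arl11, Dclre1b, Tlr8, Atf1 and Stk10 (0.944 to 0.913), for Csf1r Lsm2, Gclm, Mthfd2, Emilin1 and Tnc (0.907 to 0.891), and for Lyz2 Prkcq, Ltf, Nploc4, Ptp4a3 and Asnsd1 (0.971 to 0.910). The mean of the C1q chains was most like Raly (0.949) and Snrpg (0.945), with Srm (0.937) and Ehd4 (0.923) also among its nearest genes.

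**Figure D4:**
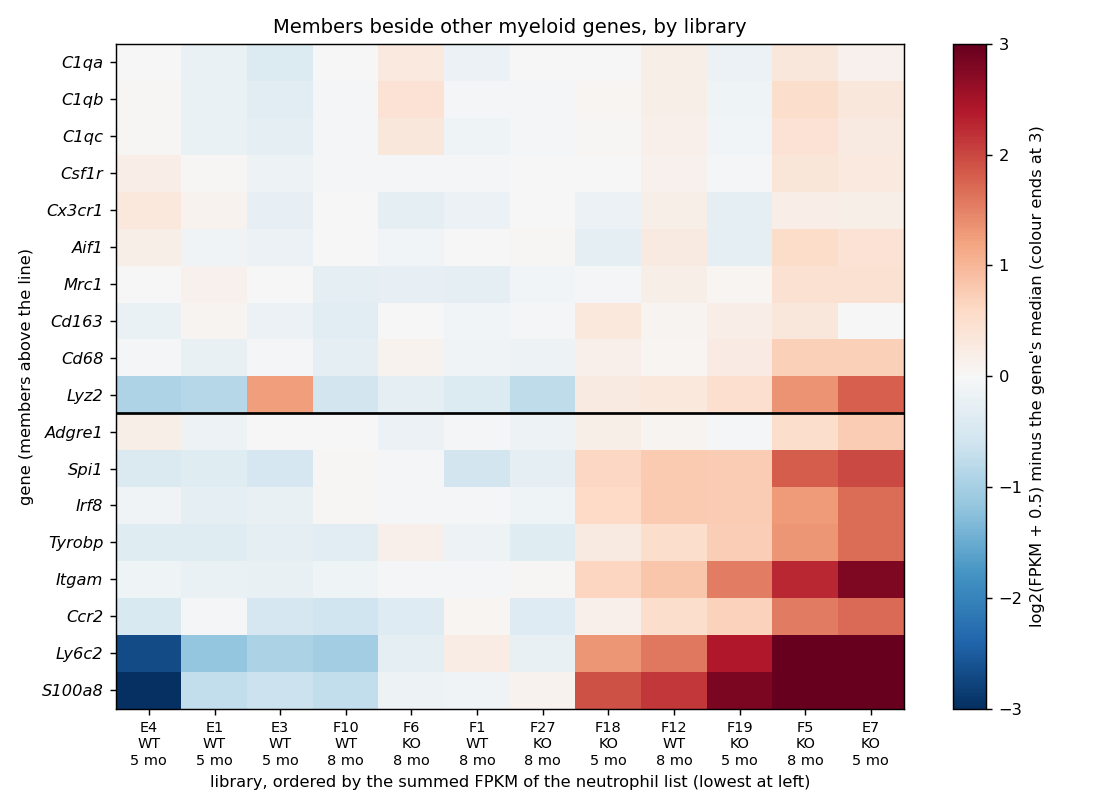
Members (above the line) and other myeloid genes (below it) in the 12 libraries, ordered from left to right by summed neutrophil FPKM, with colour for log2(FPKM + 0.5) minus the gene's median over libraries. Rows from C1qa to Cd163 stay pale from E4 to E7, Cd68 and Lyz2 darken in F5 and E7, and Ly6c2 and S100a8 run from dark blue in E4 to dark red in F5 and E7, where the colour ends at 3.

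Whether loss of Dusp1 changed these genes was asked with limma on log2(FPKM + 0.5), a single fit of the 4 groups. At 5 months 0 of 10 members passed an adjusted p of 0.05, beside 0.0676% of all genes, and 1 of 10 (Cd68) had an unadjusted p under 0.05, beside 18.1% of all genes. At 8 months 0 of 10 passed, beside 0.0123% of genes, and 0 were under 0.05 unadjusted, beside 5.17%. Averaged over both ages 0 of 10 passed, beside 0.0799% of genes, and 3 (Cd68, C1qb and C1qc) were under 0.05 unadjusted, beside 17.4%.

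In each of these 3 comparisons 9 of the 10 estimates were above 0, Cx3cr1 being the exception. That of Aif1 at 5 months was 0.0005 with an SE of 0.216, and so has no direction. Of all genes tested 44.3% were above 0 at 5 months, 48.3% at 8 months and 45.6% averaged. The median of the members was 0.19 at 5 months, 0.22 at 8 months and 0.22 averaged, against medians of −0.03, −0.0040 and −0.02 over all genes tested. The members' estimates share the same libraries and are not independent of each other. F5 was the highest KO library of 8 months for 10 of the 10 members, beside 5559 of 16276 genes tested. E7 was the highest KO library of 5 months for 9 members, beside 5677 genes. Leaving these libraries out therefore lowers the differences of the members they lead by construction. For Cd163, E7 was the lowest KO library of 5 months. Without F5 the median at 8 months was 0.03. With E7 and F5 left out the averaged median was 0.13, and with E3 left out too, an alternative chosen after seeing the data, it was 0.09.

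Cd68 had the largest averaged difference after Lyz2, 0.41 ± 0.148 on the log2 scale (SE, 95% interval 0.08 to 0.74, limma adjusted p = 0.238). An exact permutation test of its libraries within each age gave p = 0.02. This was the smallest among the members, the same test giving 0.05 to 0.78 for the others, and it was not corrected for the number of members. The difference of Cd68 was 0.49 at 5 months (limma adjusted p = 0.258), where an exact two-sided test of 3 against 3 libraries gave 0.1, the smallest p this design allows. Without E7 and F5, the highest KO library of Cd68 at each age, the averaged difference was 0.20, and such a fall follows by construction. Neutrophil genes were also higher there, the summed list ranging from 75.9 to 691 FPKM in WT and from 4190 to 23117 FPKM in KO at 5 months, without overlap, so the neutrophil level and the genotype cannot be told apart at 5 months.

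The averaged differences of the C1q chains were 0.20 ± 0.0977 for C1qa (interval −0.02 to 0.41, adjusted p = 0.327), 0.27 ± 0.115 for C1qb (0.02 to 0.53, adjusted p = 0.267) and 0.24 ± 0.102 for C1qc (0.01 to 0.47, adjusted p = 0.269). E3 was the lowest WT and E7 the highest KO library of 5 months for all 3 chains, so leaving them out lowers the difference by construction. Without them, an alternative chosen after seeing the data, C1qa was at −0.02, C1qb at 0.06 and C1qc at 0.05 there. At 8 months, where C1qa differed by 0.23 with all libraries, the libraries F5 and F6 labelled KO were above all WT libraries and F27 was not.

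For Csf1r the averaged difference was 0.08 ± 0.0953, with an interval from −0.14 to 0.29. Cx3cr1 had −0.09 (−0.37 to 0.19), Aif1 0.04 (−0.30 to 0.38), Mrc1 0.15 (−0.17 to 0.46) and Cd163 0.24 (−0.01 to 0.49), with adjusted p between 0.295 and 0.909. The interval of Lyz2 was the widest, its averaged difference being 0.67 ± 0.49, with an interval from −0.42 to 1.76 (adjusted p = 0.499), and at 5 months the value was 1.03 with all libraries, 0.56 without E7 and 1.74 without E3. An interval that holds 0 does not show that the genotypes are alike.

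**Figure D5:**
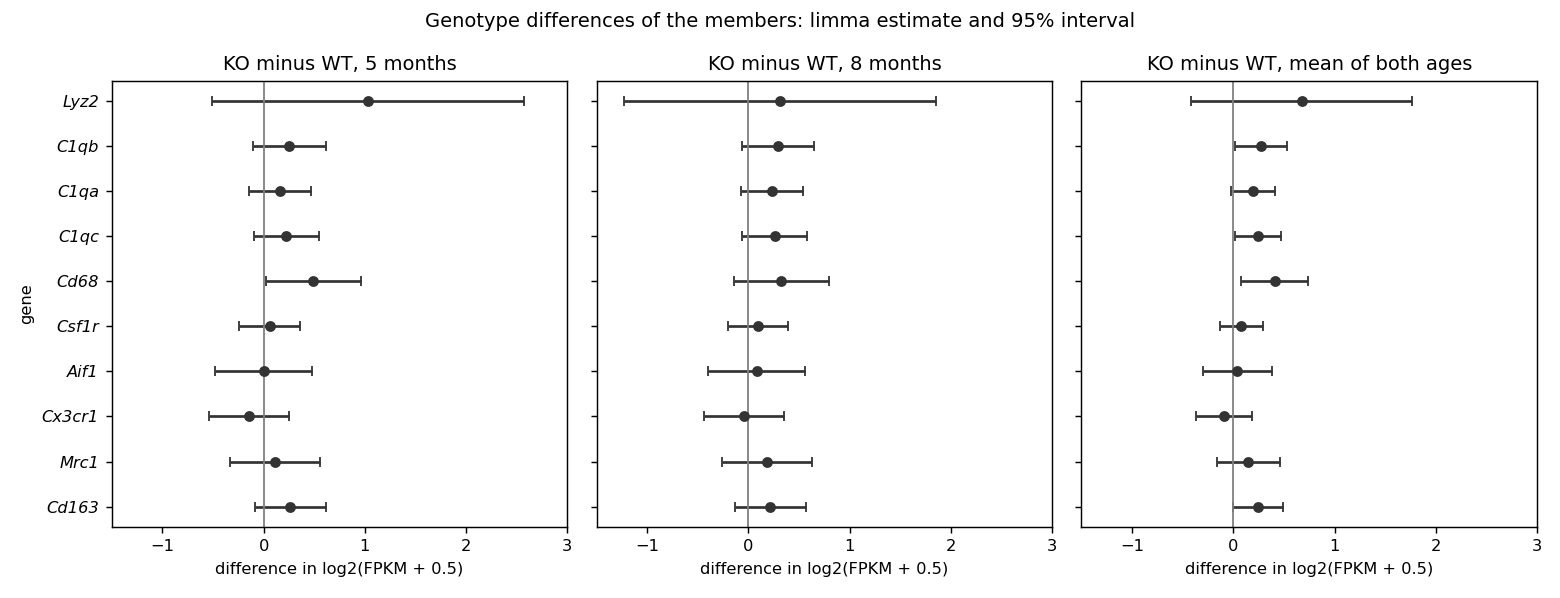
Difference between the libraries labelled KO and WT in log2(FPKM + 0.5) (x axis) for the 10 members (y axis) at 5 months, at 8 months and averaged over both, as limma estimates (points) with 95% intervals (bars). Estimates other than Lyz2 lie between −0.14 and 0.49, and the averaged intervals of Cd68, C1qb and C1qc lie just above 0 before adjustment over all genes.

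Age was compared within each genotype. In WT 0 of 10 members passed, beside 0.0123% of genes, and 0 were under 0.05 unadjusted, beside 7.84%, with a median difference of −0.0018. In KO 0 of 10 passed, as did 0% of all genes tested, and 0 were under 0.05 unadjusted, beside 12.6%, with a median of 0.04. The difference of the genotype effect between ages was called for 0 of 10 members, beside 0.00614% of genes, and for 0 unadjusted, beside 4.68%. All WT libraries of 5 months carry the letter E and all libraries of 8 months the letter F, whose meaning is not given, so letter and age cannot be told apart in WT.

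Ratios between members cancel what scales all macrophage genes of a library alike. Of 45 ratios of 2 members, 1 had ages that did not overlap in either genotype and moved the same way in both (2.22%). It was C1qa to Csf1r, which was 2.07, 2.01 and 2.12 in WT and 2.12, 2.34 and 2.2 in KO at 5 months, and 2.18, 2.47 and 2.48 in WT and 2.38, 3.02 and 2.47 in KO at 8 months. Likewise 1 ratio of 45 (2.22%), C1qa to Cx3cr1, had genotypes that did not overlap at either age, being higher in the libraries labelled KO. Both were picked after all ratios were seen and carry no test. With C1qb or C1qc in place of C1qa, the ratio to Csf1r had ages that did not overlap in WT but did in KO. The ratio of C1qb or C1qc to Cx3cr1 had genotypes that did not overlap at 5 months but did at 8 months.

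Other genes of the same cells were read from lists fixed together with the members. Of 26 further macrophage genes 22 were tested, and 0 passed at 5 months, where 9 were above 0 and 1 below with an unadjusted p under 0.05, beside 18.1% of all genes in either direction, and the median was 0.31. At 8 months 0 passed, 1 of the 22 was under 0.05 unadjusted, beside 5.17% of all genes, and the median was 0.19. Adgre1 (F4/80), the classical macrophage surface marker, was at 6.02, 6.79 and 7.66 FPKM in WT and 11.8, 7.72 and 6.48 FPKM in KO at 5 months, and Trem2, a lipid receptor of phagocytes, was at 8.54, 8.47 and 10.3 FPKM in WT and 11.5, 10 and 8.74 FPKM in KO, each with overlapping groups. Itgam, Tyrobp and Fcer1g, which neutrophils express as well, were at 37.5, 297 and 155 FPKM in E7 and at 4.53, 71.7 and 38.7 FPKM in E4. The 9 genes above 0 with an unadjusted p under 0.05 at 5 months were all higher in KO there without overlap, beside 11.3% of all genes tested. They were Itgam, Tyrobp, Fcer1g, Laptm5, Pld4, F13a1, Siglec1, Ms4a7 and Cd14. The differences of Siglec1, Ms4a7 and Cd14 were 0.61, 0.45 and 0.30 (limma adjusted p = 0.237, 0.203 and 0.193). Siglec1 was the gene under 0.05 unadjusted at 8 months. It differed there by 0.56 without overlap (limma adjusted p = 0.962), beside 4.10% of all genes.

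Markers of subsets of tissue macrophages were present at low levels. Lyve1, the hyaluronan receptor of perivascular macrophages, ranged from 1.85 to 4.61 FPKM and Folr2, a folate receptor of the same cells, from 2.57 to 5.44 FPKM. The genes of liver and spleen macrophages Vsig4, Cd5l, Timd4 and Marco did not reach the filter on the mean. Vsig4, Timd4 and Marco were at most at 0.299, 0.607 and 0.0818 FPKM, and Cd5l was at 2.07 FPKM in E7, 0.581 FPKM in F5 and lower elsewhere. Cd209f, a lectin of connective tissue macrophages, was at 2.05, 2.67 and 2.31 FPKM in WT and 0.846, 0.819 and 1.10 FPKM in KO at 5 months and at 3.18, 2.03 and 2.35 FPKM in WT and 1.56, 2.46 and 2.19 FPKM in KO at 8 months. Its groups did not overlap at 5 months (difference −0.9985 ± 0.184, limma adjusted p = 0.115), and all 3 KO values were below all WT values. The share of all genes with KO below WT in this way was not counted, so how common it is cannot be given.

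Csf1 and Il34 encode the ligands of the receptor Csf1r. Csf1 ranged from 13.2 to 16.6 FPKM and Il34 from 14.6 to 20.5 FPKM, with averaged differences of 0.10 (adjusted p = 0.338) and 0.03 (adjusted p = 0.883). Fractalkine (Cx3cl1), the ligand of Cx3cr1, was at 31.4, 28.4 and 32.3 FPKM in WT and 22.9, 24.5 and 24.4 FPKM in KO at 5 months. These groups did not overlap (−0.35 ± 0.0837, limma adjusted p = 0.151). The share of all genes with KO below WT in this way was not counted. At 8 months fractalkine was at 26.1, 31.3 and 27.1 FPKM in WT and 25.8, 28.1 and 29.8 FPKM in KO.

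Transcription factors of the lineage were read with the receptor's axis. Of 13 genes of the CSF1R axis and myeloid factors 0 passed and 7 were above 0 with an unadjusted p under 0.05 at 5 months, beside 18.1% of all genes, with a median of 0.81. At 8 months 0 passed, 0 were under 0.05 unadjusted, beside 5.17%, and the median was 0.11. Spi1 (PU.1) and Irf8, which neutrophils, monocytes and B cells use too, were at 39.6 and 18.04 FPKM in E7, 35.2 and 13.7 FPKM in F5 and 7.01 and 4.93 FPKM in E4.

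C1q acts with the proteases C1r and C1s, and the genes of this partner group were tested in the same fit. Of 12 fixed genes 10 were tested, 0 passed, and 3 were above 0 with an unadjusted p under 0.05 at 5 months, beside 18.1% of all genes, where the median was 0.08. At 8 months 0 passed, 1 of the 10 was under 0.05 unadjusted, beside 5.17%, and the median was 0.20. C1ra ranged from 8.24 to 14.5 FPKM and C1s (listed as C1s1) from 11.2 to 21.0 FPKM, below each C1q chain in every library, while Serping1, the inhibitor of both, ranged from 157 to 240 FPKM. C3, the central component, was at 8.70, 9.20 and 10.5 FPKM in WT and 35.6, 44.1 and 16.02 FPKM in KO at 5 months. All its KO values were above all its WT values there, as in 11.3% of all genes tested (1.58 ± 0.432, limma adjusted p = 0.174). At 8 months it was at 16.8, 13.2 and 20.5 FPKM in WT and 38.6, 24.2 and 11.6 FPKM in KO, with overlap (0.41 ± 0.432, adjusted p = 0.979).

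Lists of other cell types were read beside the members, and none of their genes passed at either age. Medians were 4.67 over 18 neutrophil genes, 1.95 over 11 monocyte genes, 2.04 over 12 B cell genes and 1.85 over 9 red cell genes at 5 months, against 0.19 for the members. At 8 months the same medians were 0.83, 0.39, −0.13 and 0.32, against 0.22 for the members. At 5 months osteoclast genes had a median of 0.35 over 7, dendritic cell genes 0.20 over 7, lysosomal genes 0.10 over 14, genes shared with microglia −0.08 over 9 and cochlear genes −0.07 over 12. E7 and F5, which led Cd68, were the top pair of libraries for 8 of 11 monocyte genes, the others being Fn1, Ace and Vcan, whose differences at 5 months were −0.10, −0.10 and −0.13. Ly6c2 was at 164 FPKM in E7 and 131 FPKM in F5 and between 1.19 and 56.6 FPKM elsewhere, and Ccr2 at 20.8 and 18.9 FPKM there and at most 10.2 FPKM elsewhere. The microglial markers Tmem119 (19.4 to 26.5 FPKM) and P2ry12 (2.92 to 5.22 FPKM) were detected in every library, and neither is known to be exclusive to microglia.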

How the data were processed

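RNA of whole cochleae was measured in 12 libraries. The authors isolated polyA RNA, prepared stranded libraries, sequenced single reads, checked them with FastQC 0.10.1, aligned them to mm9 and took FPKM from Cufflinks 2.2.1. The submitters' processing notes also name SAMtools 0.1.19, Bowtie 1.0.0 and TopHat2 2.0.10. In the FPKM table deposited by the authors many values had lost their decimal point. It was restored by finding the placing whose group mean equals the authors' group FPKM (tolerance 2e-05), which changed 55.32% of values and left out 6 of 23951 genes. The authors' fold changes, p-values and enrichment reports were not used.

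Members and lists were chosen with earlier results of these data known. Groups follow the labels. limma 3.58.1 in R 4.3.3 fitted log2(FPKM + 0.5) of genes whose mean reached 0.5 FPKM, with a variance trend and all 12 libraries, with p-values adjusted after Benjamini and Hochberg over all 16276 genes at 0.05, and it was tested on simulated data. Fold changes on this scale understate those of low genes. Exact permutation tests were two-sided, over libraries (smallest p 0.1 for 3 against 3, 0.005 within both ages). Replicates are libraries with separate codes, read here as separate animals, and p-values measure the spread between them. Genes were named by a fixed rule: all members, 21 fixed genes of their lists, any list gene past the threshold (0 were), Dusp1 and, as likeness, the 5 genes of highest Pearson's r among those whose mean reached 1 FPKM. Some results that this rule names are not reported here. Other genes were named after their values were seen.

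No source used here states the number of reads. In genes with 1 transcript the lowest FPKM times transcript length formed a first peak, taken as 1 read, and its place implied about the same depth in all libraries, 1 read being worth 48.9 to 56.7 FPKM times bases. By this estimate about 110 to 220 reads then lie behind Aif1, 150 to 260 behind Cd163 and 510 or more behind each other member in every library, which bounds counting error alone at about 9.4% or less. Python 3.11.15 read the genome, in which 99.79% of the annotated start codons read ATG.

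Alternatives were pseudocounts 0.1 and 1, filters above 0 and at 1 FPKM, scaling by quantiles or by median ratios, a fit without the variance trend, one with array weights, one of the compared groups alone, covariates for code letter, sex and neutrophil level, E7 and F5 left out, and each library left out. Leaving out E3 with E7, and E3 with E7 and F5, was added after seeing the data.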

Additional observations from a re-analysis of the deposited data

How the results depend on the processing

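Under none of the 27 alternatives did a member pass the adjusted threshold in any of the 6 comparisons, and the smallest adjusted p was 0.134. No paired analysis was possible because the libraries carry separate codes and no shared replicate numbers. The median difference of the members is about as large as the median SD within groups of a member, 0.226, so a move smaller than that can still take away the whole difference. Without F5 the median at 8 months went from 0.22 to 0.03. F5 was the highest KO library of that age for 10 of the 10 members, so a fall follows by construction. It moved by more than that SD in 5 cases. With the neutrophil level as a covariate it was −0.17 at 5 months and 0.29 for the difference between ages, and the median log2 difference of the members, KO against WT averaged over both ages, was −0.0164. With the code letter as a covariate it was −0.19 for the difference between ages and 0.43 for age in WT. KO at 5 months is the one group with both letters, so the letter's effect rests on E7 against F18 and F19, and the neutrophil sums of the genotypes do not overlap at 5 months, so neither covariate separates its cause from the groups. The causes were not tested.

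Estimates at least 1 SE from 0 changed sign in 10 cases. With the neutrophil level as a covariate, Cd68 (−0.11), Cd163 (−0.0017) and Lyz2 (−0.99) did at 5 months, Mrc1 (−0.23) and Lyz2 (−0.51) averaged over both ages, and Lyz2 (0.0803) with age in KO. Mrc1 averaged over both ages was at −0.0287 without E7 and F5 and −0.0438 without E3 too, and C1qa at 5 months at −0.0177 without E3 and E7, with or without F5. E7 and F5 held the top values of Mrc1, so leaving them out lowers its difference by construction. Estimates under 1 SE, which have no settled direction, changed sign 151 times. All member values under alternatives numbered 1600, which includes those of estimates at least 1 SE from 0. Over all genes the calls at 5 months numbered 11 and 3 to 18 under alternatives, 2 and 2 to 6 at 8 months, 13 and 3 to 25 averaged, 1 and 0 to 13 for the difference between ages, 2 and 0 to 12 for age in WT, and 0 and 0 to 4 for age in KO. Groups of 3 limit what can be called: at 5 months the largest member estimate, 1.03 for Lyz2, had an SE of 0.693.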
